A study of Mus musculus with 16 samples.

Results

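The immediate early AP-1 and Egr genes were followed across mouse neural crest stem cells that were left unprimed or were primed with instructive growth factors. The members are 10 genes, namely Fos, Fosb, Fosl1 and Fosl2 of the Fos family, Jun, Junb and Jund of the Jun family, and Egr1, Egr2 and Egr3. They were chosen by name, and 16 probe sets whose platform annotation names only 1 of them were taken from 45101 probe sets on the array. For each gene the probe set with the highest mean log2 intensity over 16 arrays leads, so that 10 of 18194 genes with a single-gene probe set are described here. The 16 arrays fall into 4 groups of 4, which the labels call unprimed cells (titled NCSCs), cells primed to glia (Glia), to neurons (Autonomic) and to mesenchyme (Mesenchymal). All 4 groups were primary mouse material from the neural crest, with 2 ug of total RNA labelled per array. The growth factors, the length of exposure, the strain, genotype and embryonic age were not stated in the labels. Nothing there says that replicates were separate cultures, so a p-value reflects the spread between these 4 arrays per group, and that spread may be technical.

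AP-1 is a dimeric transcription factor of basic leucine zipper proteins, in which Fos family proteins pair with Jun family proteins and Jun proteins also pair with each other. The Egr proteins are zinc finger transcription factors that bind GC-rich sites, and Egr2, also known as Krox20, is required for myelination by Schwann cells, the glia of peripheral nerves. Fos, Fosb, Junb and the Egr genes are switched on within minutes by growth factors, through kinases that act on serum response factor and its ternary complex partners, and their mRNAs are short-lived. Fosl1 and Fosl2 come up later in such responses and lack the strong activation domain of Fos, and Jund is present in resting cells.

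Promoter windows of these genes are shown because immediate early induction is known to act through a few short elements close to the start site. The windows are RefSeq's for GRCm38.p6, and 7 of the 10 members had one. Each line gives the 150 bases before the annotated start, 5′ to 3′ on the gene's strand, and capitals mark the matches found on either strand. The members with a match were Fos at chr12:85473740-85473889 (plus strand), Fosb at chr7:19310046-19310195 (minus), Fosl2 at chr5:32136322-32136471 (plus), Jun at chr4:95052223-95052372 (minus) and Egr2 at chr10:67537719-67537868 (plus). Egr2 has 5 annotated starts, numbered here by position, and start 3 is shown. The windows of 4 of them held a CArG box. Those of starts 3, 4 and 5 overlapped and held the same box, CCATATATGG, while that of start 2 held CCTTTTTTGG.
Fos: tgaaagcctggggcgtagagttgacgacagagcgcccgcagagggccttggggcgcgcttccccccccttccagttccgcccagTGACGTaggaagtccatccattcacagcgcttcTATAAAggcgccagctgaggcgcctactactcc
Fosb: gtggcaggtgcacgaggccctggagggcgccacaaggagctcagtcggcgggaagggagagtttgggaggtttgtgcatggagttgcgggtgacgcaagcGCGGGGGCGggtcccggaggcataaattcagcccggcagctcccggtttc
Fosl2: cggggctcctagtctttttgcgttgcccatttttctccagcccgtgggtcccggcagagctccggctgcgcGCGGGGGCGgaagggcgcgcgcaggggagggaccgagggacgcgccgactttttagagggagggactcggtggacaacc
Jun: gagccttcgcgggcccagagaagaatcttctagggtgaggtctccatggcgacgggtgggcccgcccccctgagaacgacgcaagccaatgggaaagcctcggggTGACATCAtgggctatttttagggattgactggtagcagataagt
Egr2: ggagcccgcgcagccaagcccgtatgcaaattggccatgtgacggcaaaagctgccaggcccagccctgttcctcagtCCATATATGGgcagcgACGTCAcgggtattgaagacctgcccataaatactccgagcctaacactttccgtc

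Counting back from -1 at the base before the start, the Fos window held the core of a cAMP response element, TGACGT, at positions -66 to -61 and a TATA box, TATAAA, at -33 to -28. The Fosb and Fosl2 windows held the same Egr site, GCGGGGGCG, at -50 to -42 and at -79 to -71. The Jun window held TGACATCA, an octamer bound by Jun and ATF proteins, at -45 to -38. The Egr2 window held a CArG box, the site of serum response factor, at -72 to -63 and the cAMP response element core on the opposite strand at -56 to -51. The search covered 250 bases before each start on both strands, for TGACGT, for the AP-1 site TGAGTCA, for the octamer TGACNTCA, which holds TGACGT when N is G, for the Egr site GCGNGGGCG, for TATAAA and for the CArG box. Of 32851 windows of all genes, 6.47% held TGACGT, 4.46% the AP-1 site, 7.49% the octamer, 4.70% the Egr site, 12.4% TATAAA and 1.47% the CArG box. The windows of Junb and Jund held none of these letters, and a match or its absence describes the sequence only. Elements farther than 250 bases from a start were not searched. The lack of a CArG box in a window, as in that of Fos, therefore does not show that the gene has none.

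The deposited values had been scaled alike by the authors with RMA, so array medians were close, at 3.05 to 3.15 in log2 intensity. The arrays correlated across genes at r = 0.90 to 0.96 both within and between groups. The mean over 9 measured neural crest markers was 7.35, 7.29, 6.72 and 7.54 in unprimed, glia-, neuron- and mesenchyme-primed arrays, well above the array medians. By group mean Sox10 ran from 7.22 to 8.84, Erbb3 from 8.12 to 9.67 and Foxd3 from 4.40 to 4.83. Single neuron-primed arrays fell lower, to 5.46 for the mean over the markers, 4.30 for Sox10 and 2.81 for Foxd3. Ngfr, the receptor commonly used to isolate neural crest stem cells, and named here after its values were seen, was lower than in unprimed arrays after glia priming (log2 change -1.87, limma adjusted p = 0.0479) and after neuron priming (-2.75, adjusted p = 0.00554). The first of these calls held under 7 of 26 alternatives. Markers of the target fates were mixed in the groups named for them, with 8 measured for glia, 8 for autonomic neurons and 10 for mesenchyme and smooth muscle. In glia-primed arrays Gfap, Mbp, S100b and Cdh19 averaged 2.89, 2.89, 3.47 and 3.50, near the array medians, while Fabp7 and Pmp22 averaged 7.22 and 6.19, against 8.67 and 6.72 in unprimed arrays, and Sox10 and Erbb3 were high in every group. In neuron-primed arrays Phox2a, Gata3, Th and Insm1 averaged 2.28, 2.29, 2.74 and 2.89, and Hand2 and Dbh 4.0 and 4.17. Gata2 and Stmn2 averaged 5.16 and 6.01 there, against 4.73 and 5.59 in unprimed arrays. The mean over the 10 mesenchyme and smooth muscle markers was 5.29 in mesenchyme-primed arrays and 4.58 in unprimed arrays. It was 5.68 in glia-primed and 5.70 in neuron-primed arrays, above the group named for these markers, with overlapping arrays. These are bulk samples, so fewer cells of a type and less RNA per cell cannot be told apart.

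No member passed an adjusted p of 0.05 in any comparison by limma, with Benjamini-Hochberg adjustment across the 18194 genes. The share of all genes called was 0.511% for glia-primed against unprimed arrays, 0.434% for neuron-primed and 0.022% for mesenchyme-primed arrays against unprimed ones. Between primed groups it was 0.011% for glia against neuron priming, 0.225% for glia against mesenchyme and 0.346% for neuron against mesenchyme, and 0.599% in the F test for any difference among the 4 groups. Against shares of this size, 0 of 10 is not a result about the members. The comparisons with unprimed arrays share the same 4 control arrays and are not independent of each other.

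At an unadjusted p under 0.05, 1 member differed after glia priming (9.91% of all genes), 3 after neuron priming (9.80%) and 4 after mesenchyme priming (7.70%). Between primed groups the counts were 1 for glia against neuron (6.24% of all genes), 0 for glia against mesenchyme (7.05%) and 1 for neuron against mesenchyme (8.23%), and 2 in the F test (10%). The members were Fosl2 in all 3 comparisons with unprimed arrays, Egr2 and Jund after neuron priming, Fos, Fosb and Jun after mesenchyme priming, Fosl1 between glia and neuron priming, and Jun between neuron and mesenchyme priming. The values of a single member, Fosl2, did not overlap between 2 groups, glia-primed and unprimed, where 7.18% of all genes did not overlap. In the other comparisons 0 members were free of overlap, against 5.53% of all genes for neuron and 5.69% for mesenchyme priming against unprimed arrays, and 2.96%, 4.55% and 4.17% for glia against neuron, glia against mesenchyme and neuron against mesenchyme. The median log2 change of the 10 members from unprimed arrays was 0.03, 0.05 and 0.15 after glia, neuron and mesenchyme priming, with all genes at -0.01, 0.00 and -0.01.

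**Figure D1:**
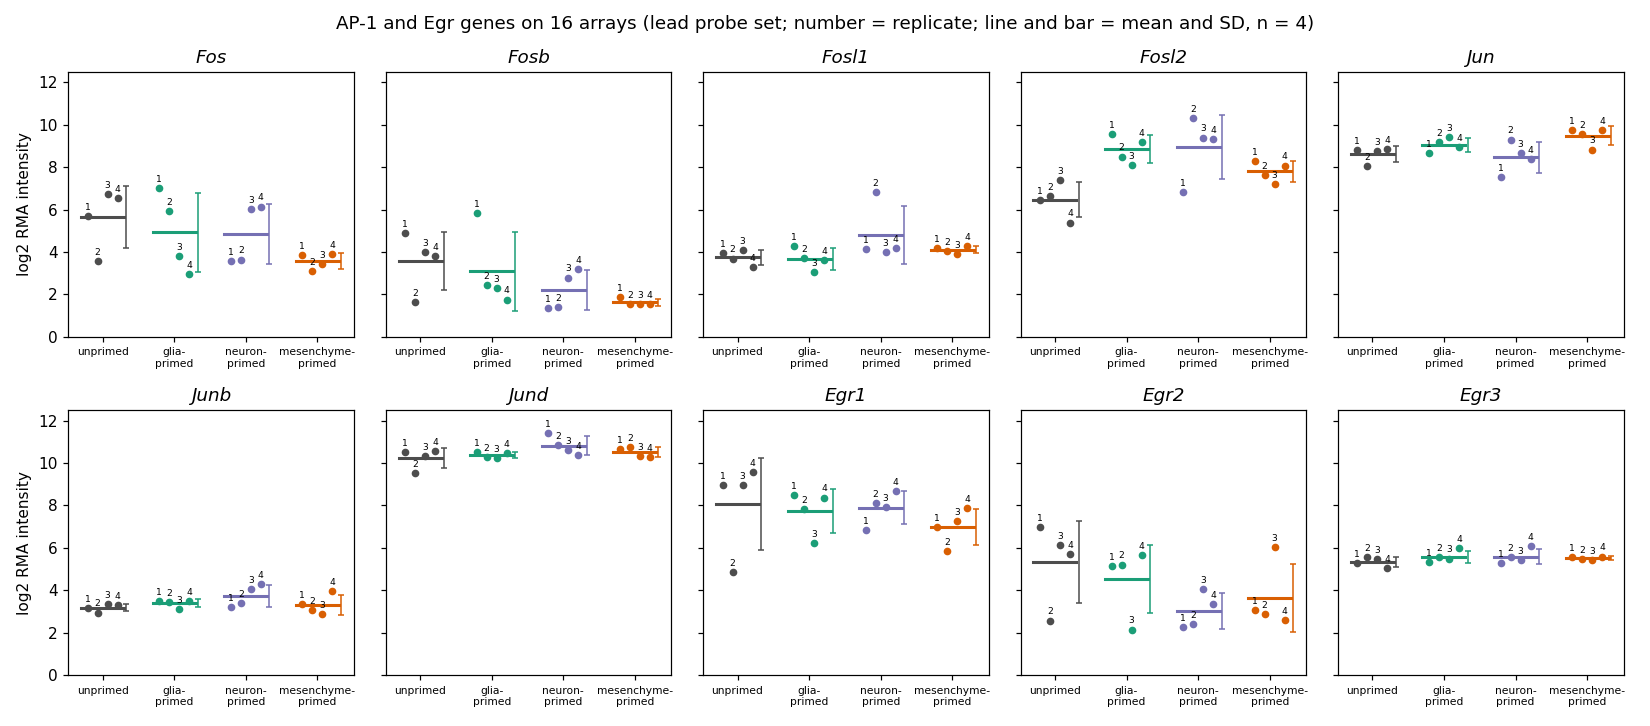
Log2 RMA intensity of the 10 genes on each of 16 arrays, 1 panel a gene, with the replicate number above each point and the group mean and SD (n = 4) as line and bar. Fosl2 is the gene whose unprimed arrays (5.39 to 7.38) all lie below the glia-primed arrays (8.11 to 9.58), while Fos, Fosb, Egr1 and Egr2 spread widely within groups.

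Fosl2, which encodes the AP-1 subunit Fra-2, had the lowest p-value of the 10 genes. In the 4 unprimed arrays its log2 intensity was 6.44, 6.63, 7.38 and 5.39 (mean 6.46 ± 0.82, SD, n = 4). It was 9.58, 8.51, 8.11 and 9.17 in the glia-primed arrays (8.84 ± 0.66) and 6.82, 10.33, 9.40 and 9.32 in the neuron-primed arrays (8.97 ± 1.5). In the mesenchyme-primed arrays it was 8.31, 7.61, 7.20 and 8.08 (7.80 ± 0.49). Every glia-primed array was above every unprimed array, while neuron-primed replicate 1 lay among the unprimed arrays and mesenchyme-primed replicate 3 just below the highest of them.

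The log2 change of Fosl2 from unprimed arrays was 2.38 after glia priming, a 5.20-fold ratio of geometric means (SE 0.62, 95% interval 1.05 to 3.71, limma adjusted p = 0.133). After neuron priming it was 2.50, or 5.68-fold (interval 1.17 to 3.84, adjusted p = 0.121), and after mesenchyme priming 1.34, or 2.53-fold (interval 0.00 to 2.67, adjusted p = 0.648). The F test over the 4 groups gave an adjusted p of 0.192 for Fosl2. None of these passed the threshold. The glia-primed and neuron-primed means differed by -0.13 (interval -1.46 to 1.21), and glia-primed and neuron-primed arrays were 1.04 and 1.17 above mesenchyme-primed arrays, with intervals that included 0.

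Whether Fosl2 passed the threshold depended on the arrays kept and on the scaling. Without neuron-primed replicate 1, its change passed the test after glia priming (2.38, adjusted p = 0.0208) and after neuron priming (3.22, adjusted p = 0.00392), as did its F test (adjusted p = 0.0098). Centring each array on housekeeping genes moved the median of all genes by 0.32 after glia priming, and the Fosl2 change there became 2.71 (adjusted p = 0.0452). Over 26 alternatives its change stayed positive against unprimed arrays. For glia priming it was 1.61 to 2.87 (limma adjusted p 0.0208 to 0.351). For neuron priming it was 2.05 to 3.22 (0.00392 to 0.334), and for mesenchyme priming 0.82 to 1.83 (0.418 to 0.859). Many of these alternatives could move only the adjusted p and not the change. Examples are leaving out an array of a group not compared, the filter on dim genes and the variance model. The dimmer Fosl2 probe set gave 0.83, 1.73 and 0.30 for the 3 primed groups, none past the threshold. In it the glia-primed arrays (3.01 to 4.09) overlapped the unprimed arrays (2.48 to 3.34), unlike in the lead probe set.

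Several genes varied with Fosl2 over the arrays. The 3 genes most like Fosl2 over the 16 arrays, by Pearson's r among 9097 genes at or above the median level, were Tagln (r = 0.92), which encodes an actin-binding protein of smooth muscle, Hbegf (0.91), a growth factor of the EGF family and a known AP-1 target, and Cryab (0.91), a small heat shock protein. These correlations are descriptions over arrays that share groups and normalization, and they are the highest of 9097. Tagln was 2.37 higher in glia-primed than unprimed arrays (adjusted p = 0.0893) and Hbegf 3.50 higher (adjusted p = 0.0997), neither past the threshold. Per array, the mean over 10 mesenchyme and smooth muscle markers ran from 3.78 to 5.69 without priming, from 5.46 to 6.03 after glia priming, from 4.60 to 6.40 after neuron priming and from 4.53 to 6.56 after mesenchyme priming. Of these markers Tagln, Col1a1 and Acta2 were above the array medians in every group and Twist1 and Myh11 near them. RNA quality was read from the Gapdh controls, as the log2 ratio of their 3′ over their 5′ probe set. It was 2.20 to 2.58 without priming, 2.44 to 3.33 after glia priming, 2.53 to 3.10 after neuron priming and 2.66 to 3.13 after mesenchyme priming. The same ratio of the actin controls was negative on every array and ordered the groups differently. It was -0.70 to -0.39, -0.24 to -0.07, -0.92 to -0.29 and -0.40 to -0.08 in the same order of groups. Only the Gapdh ratio was used as a covariate. With it the Fosl2 change was 2.87, 2.91 and 1.83 for glia, neuron and mesenchyme priming (adjusted p = 0.242, 0.213 and 0.793).

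The mean over neural tube markers was lower in the primed groups, where Fosl2 had higher means, than in unprimed arrays. The single genes named here from the marker lists were picked after their values were seen. The mean over 8 neural tube markers ran from 3.98 to 6.84 per array without priming, from 2.47 to 4.08 after glia priming, from 2.82 to 5.98 after neuron priming and from 3.20 to 5.17 after mesenchyme priming. By limma 0 of the 8 were called in any comparison. Among them Neurog2, a proneural factor, averaged 5.87 in unprimed arrays and 2.92, 2.89 and 3.72 after glia, neuron and mesenchyme priming (limma adjusted p = 0.0558, 0.0571 and 0.379). Sox2, a factor of neural progenitors, averaged 7.92 and then 5.14, 5.73 and 6.74 (adjusted p = 0.220, 0.392 and 0.795). Not every marker of the list was lower in each primed group. Pax6 averaged 6.54 after neuron priming against 5.96 in unprimed arrays, and Sox1 6.16 after mesenchyme priming against 5.55. The mean over 10 heat shock and handling genes ran from 7.61 to 7.94, 7.73 to 8.16, 7.5 to 8.5 and 7.35 to 7.95 in the same order of groups, with 0 of 10 called. In that list Hspb1, a small heat shock protein gene, averaged 3.64 in unprimed arrays, 4.61 after glia priming, 6.31 after neuron priming (3.94 to 9.11, adjusted p = 0.175) and 3.55 after mesenchyme priming, and Hspa1a and Hspa1b averaged 1.52 to 2.06 in all groups. The part of the smooth muscle, neural tube and heat shock genes in the Fosl2 values was not tested.

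**Figure D2:**
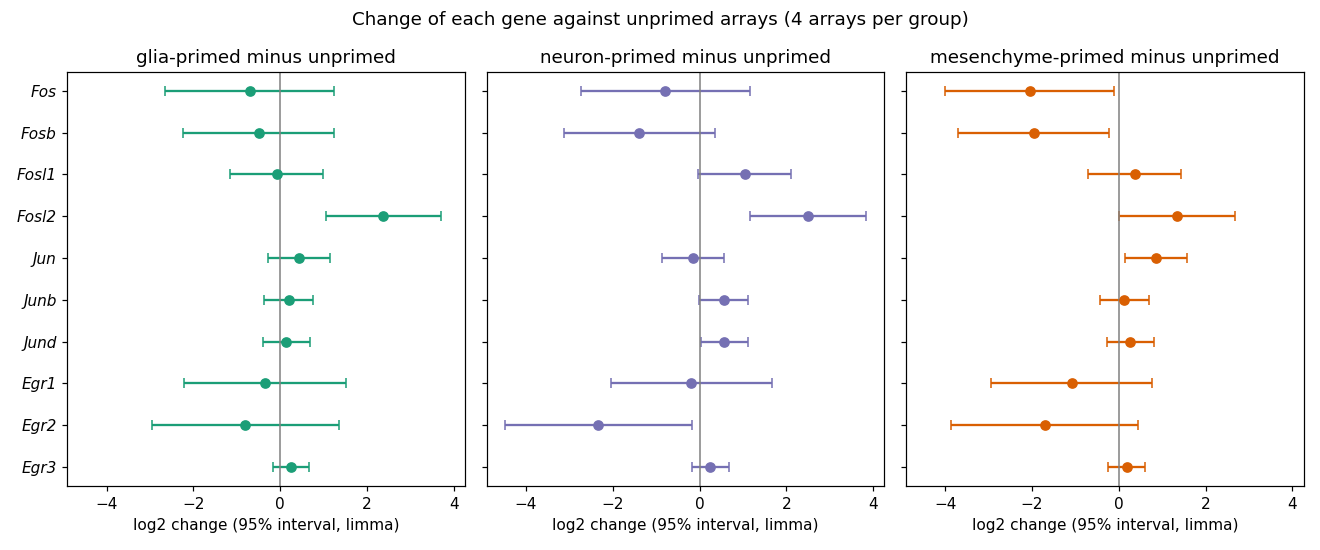
Log2 change of each gene against the unprimed arrays in the 3 primed groups (4 arrays per group), as points with 95% intervals from limma. The Fosl2 intervals start at 1.05 for glia and 1.17 for neuron priming, and the intervals of Fos, Fosb, Egr1 and Egr2 are several log2 units wide.

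Fos, the founding member of the family, varied more between arrays of a group than between groups. Its log2 intensity was 5.68, 3.56, 6.75 and 6.56 in the unprimed arrays (5.64 ± 1.46, SD, n = 4) and 7.04, 5.91, 3.82 and 2.94 in the glia-primed arrays (4.93 ± 1.88). It was 3.57, 3.64, 6.01 and 6.14 in the neuron-primed arrays (4.84 ± 1.43) and 3.85, 3.11, 3.45 and 3.90 in the mesenchyme-primed arrays (3.58 ± 0.37). The mesenchyme-primed arrays were uniformly low, and unprimed replicate 2 lay within their range. The change after mesenchyme priming was -2.06 (SE 0.91, interval -4.00 to -0.11, unadjusted p = 0.0398, limma adjusted p = 0.619). After glia and neuron priming it was -0.71 and -0.79, with intervals that reached from below -2.6 to above 1.1.

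Fosb, which encodes a close relative of Fos, followed the same arrays. It read 4.88, 1.66, 4.01 and 3.79 in the unprimed arrays, 5.83, 2.44, 2.31 and 1.76 after glia priming, and 1.37, 1.39, 2.80 and 3.20 after neuron priming. In the mesenchyme-primed arrays it read 1.87, 1.54, 1.54 and 1.55, all below the array medians, so the size of its change is rough. High values of Fosb were in 3 of 4 unprimed arrays and in glia-primed replicate 1, and the group ranges overlapped. The change was -1.96 after mesenchyme priming (SE 0.81, unadjusted p = 0.0301, limma adjusted p = 0.594), -1.39 after neuron priming and -0.50 after glia priming.

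Fosl1, which encodes Fra-1, was nearly level apart from 1 array. Its lead probe set ran from 3.29 to 4.08 without priming, from 3.05 to 4.28 after glia priming and from 3.92 to 4.29 after mesenchyme priming. The neuron-primed arrays read 4.15, 6.85, 3.98 and 4.18, with replicate 2 alone far above the rest. Its second probe set read 4.52 in that array and 4.13 in mesenchyme-primed replicate 2, and between 1.30 and 2.23 elsewhere, so the probe sets disagreed on the second of these arrays. The change after neuron priming was 1.04 (SE 0.50, limma adjusted p = 0.532), and the glia-primed mean was 1.12 below the neuron-primed one (unadjusted p = 0.0415, adjusted p = 0.788). Both values rest on neuron-primed replicate 2: without it they were 0.35 and -0.43, and the neuron-primed mean was -0.01 against the mesenchyme-primed one instead of 0.68.

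Jun, the main dimer partner of Fos, had its highest mean after mesenchyme priming by its lead probe set. The mesenchyme-primed arrays read 9.74, 9.58, 8.83 and 9.77 (9.48 ± 0.44, SD, n = 4) and the unprimed arrays 8.79, 8.08, 8.78 and 8.88 (8.63 ± 0.37). The glia-primed arrays read 8.67, 9.18, 9.42 and 8.96 (9.06 ± 0.32) and the neuron-primed arrays 7.54, 9.31, 8.67 and 8.37 (8.47 ± 0.73). In the order of means, mesenchyme above glia above unprimed above neuron priming, no neighbours differed by more than the larger of their SDs except glia-primed over unprimed arrays, whose ranges overlapped. Mesenchyme-primed replicate 3 fell inside the unprimed range and the other 3 lay above it.

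The change of Jun after mesenchyme priming was 0.85, or 1.80-fold (SE 0.34, interval 0.13 to 1.57, unadjusted p = 0.0235, limma adjusted p = 0.557). Neuron-primed arrays were 1.01 below mesenchyme-primed arrays (interval -1.73 to -0.29, unadjusted p = 0.00921, adjusted p = 0.361). After glia priming the change was 0.43 and after neuron priming -0.16, and the latter turned positive under housekeeping centring (0.09). The second Jun probe set ran from 5.69 to 8.33 and gave another order, with means of 8.10 after glia priming, 7.99 after mesenchyme priming, 7.63 without priming and 6.84 after neuron priming. Its change was 0.36 after mesenchyme priming (adjusted p = 0.908) and -0.79 after neuron priming (adjusted p = 0.652), so the probe sets disagreed on the highest group and on the size of both changes. Neuron-primed arrays were at -1.15 against mesenchyme-primed arrays in it (interval -2.13 to -0.17, adjusted p = 0.514).

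Junb, which encodes a Jun protein that can restrain Jun, stayed close to the array medians. It read 3.16, 2.95, 3.35 and 3.29 in unprimed, 3.50, 3.44, 3.11 and 3.48 in glia-primed and 3.34, 3.07, 2.89 and 3.96 in mesenchyme-primed arrays. The neuron-primed arrays read 3.21, 3.40, 4.07 and 4.29, and replicates 3 and 4 of that group, which were also high in Fos and Fosb, were the highest of all 16. The change after neuron priming was 0.56 (SE 0.26, interval 0.00 to 1.11, limma adjusted p = 0.519). Fosb and Junb, with means of 2.62 and 3.41, were the members below the median gene's mean of 3.89, so 8 of 10 members passed the filter on dim genes that was tried as an alternative.

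Jund was bright on every array and varied little. It read 10.54, 9.54, 10.34 and 10.55 in unprimed and 11.42, 10.85, 10.62 and 10.37 in neuron-primed arrays, with ranges of 10.23 to 10.54 and 10.28 to 10.76 after glia and mesenchyme priming. The change after neuron priming was 0.57, or 1.49-fold (SE 0.25, interval 0.03 to 1.11, unadjusted p = 0.0397, limma adjusted p = 0.474). Unprimed replicate 2 was the lowest of the 16 and neuron-primed replicate 1 the highest. A second Jund probe set stayed at 2.70 to 3.75, and its change after neuron priming was -0.14 (limma adjusted p = 0.921).

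Egr1, an early response transcription factor of many growth signals, was high on 3 of 4 unprimed arrays. It read 8.96, 4.85, 8.96 and 9.57 there (8.08 ± 2.18, SD, n = 4), with replicate 2 far below the others. It read 8.48, 7.84, 6.23 and 8.38 in the glia-primed arrays (7.73 ± 1.04) and 6.85, 8.10, 7.94 and 8.69 in the neuron-primed arrays (7.90 ± 0.77). The mesenchyme-primed arrays read 6.98, 5.84, 7.28 and 7.88 (6.99 ± 0.86). Apart from unprimed replicate 2, the unprimed arrays were above all 12 primed arrays.

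The changes of Egr1 were -0.35, -0.19 and -1.09 for glia, neuron and mesenchyme priming (SE 0.87, limma adjusted p = 0.937, 0.975 and 0.817). Without unprimed replicate 2 they were -1.43, -1.27 and -2.17 (adjusted p = 0.474, 0.567 and 0.366), still short of the threshold. With the Gapdh ratio as a covariate all 3 turned positive, at 1.05, 0.98 and 0.33, so the direction of Egr1 is not settled by these arrays. The same unprimed array was the lowest of its group in Fos, Fosb, Jun, Junb, Jund and Egr2, and without it the mesenchyme-primed changes were -2.75 for Fos, -2.60 for Fosb and -2.64 for Egr2 (adjusted p = 0.541, 0.505 and 0.594).

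Egr2, the regulator of Schwann cell myelination, had a lower mean in glia-primed than in unprimed arrays, within their spread. It read 7.0, 2.57, 6.13 and 5.70 in the unprimed arrays (5.35 ± 1.93) and 5.15, 5.21, 2.14 and 5.66 in the glia-primed arrays (4.54 ± 1.61). The neuron-primed arrays read 2.25, 2.42, 4.06 and 3.33 (3.02 ± 0.84) and the mesenchyme-primed arrays 3.05, 2.86, 6.04 and 2.61 (3.64 ± 1.61). Each of the unprimed, glia-primed and mesenchyme-primed groups held 1 array far from its other 3, namely unprimed replicate 2, glia-primed replicate 3 and mesenchyme-primed replicate 3. The change after neuron priming was -2.33 (SE 1.01, interval -4.49 to -0.18, unadjusted p = 0.0359, limma adjusted p = 0.456), and -3.26 without unprimed replicate 2 (adjusted p = 0.240). After mesenchyme and glia priming it was -1.71 and -0.81. The second Egr2 probe set, with group means of 4.42, 3.63, 3.33 and 3.19 for unprimed, glia-, neuron- and mesenchyme-primed arrays, gave -1.10 after neuron priming (adjusted p = 0.576).

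Egr3, a further early response Egr gene, was the most even of the 10. Its lead probe set ran from 5.03 to 5.55 without priming and from 5.31 to 5.98, 5.29 to 6.10 and 5.43 to 5.59 after glia, neuron and mesenchyme priming. The changes from unprimed arrays were 0.25, 0.25 and 0.18 (SE 0.20), with 95% intervals between -0.24 and 0.67. The mean of its 2 probe sets gave -0.01 and -0.20 for glia and mesenchyme priming, so its direction depended on the probe set. The second probe set was dim, at 1.17 to 3.12.

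Fos, Fosb, Egr1 and Egr2 spread more between arrays of a group than most genes of like level. The residual SD within groups was 1.40 for Fos, 1.25 for Fosb, 1.34 for Egr1 and 1.55 for Egr2, which placed them at percentiles 94.7, 98.0, 98.2 and 98.0 of the 1000 genes nearest in mean intensity. Fosl2 had a residual SD of 0.95, at percentile 95.2. Fosl1, Jun, Jund and Junb were in the middle, at percentiles 64.8, 66.7, 57.3 and 44.1. Egr3 had a residual SD of 0.26, at percentile 1.5. A set of 4 arrays per group therefore gave a standard error of 0.81 to 1.01 for a change of the 4 most spread genes, against 0.20 to 0.34 for Egr3, Jund, Junb and Jun.

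**Figure D3:**
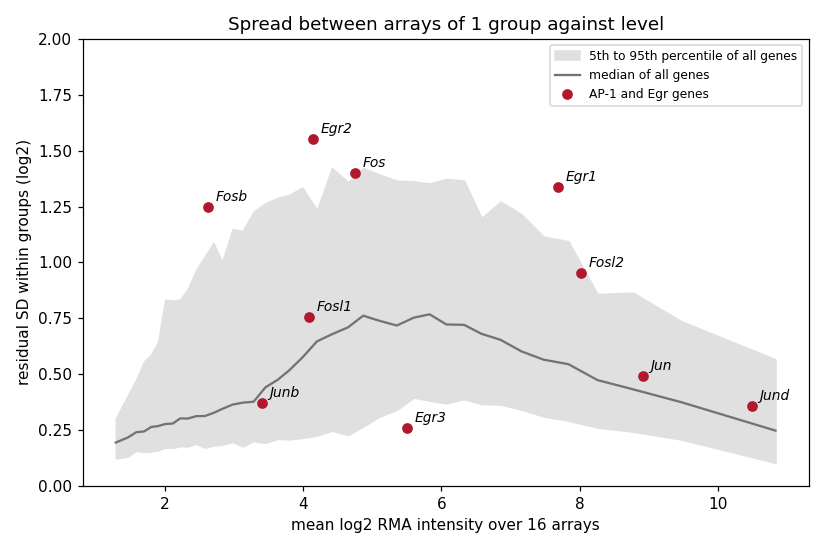
Residual SD within groups against mean log2 intensity over 16 arrays, with the median of all genes as a line and their 5th to 95th percentiles as a grey band. Egr2 (1.55), Egr1 (1.34) and Fosb (1.25) lie above the band, Fos (1.40) and Fosl2 (0.95) at its upper edge and Egr3 (0.26) below it.

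Correlations between members were taken within groups. After group means were removed, Fos and Fosb correlated at r = 0.83 over the 16 arrays (Spearman's rho 0.86, permutation p = 0.00373 for r, 0.0839 after Benjamini-Hochberg adjustment over 45 pairs of members). Without the 2 arrays farthest from the median of Fos, r was 0.79, and over the 4 arrays of each group it was 0.79, 0.83, 0.99 and 0.50 for unprimed, glia-, neuron- and mesenchyme-primed arrays. Junb and Egr1 correlated at r = 0.55 (rho 0.61, permutation p = 0.00204, adjusted 0.0839) and Fos and Junb at r = 0.60 (rho 0.73, permutation p = 0.00615, adjusted 0.0922). Without the 2 arrays farthest from the median of the first gene of the pair these were 0.56 and 0.62. The arrays left out were neuron-primed replicates 3 and 4 for Junb, and unprimed replicate 3 and glia-primed replicate 1 for Fos. Unprimed replicate 2, far below its group mean in Fos, Fosb and Egr1, thus stayed in for these pairs and for Fos and Fosb. Egr1 and Egr2 correlated at r = 0.73 (rho 0.47, permutation p = 0.0215, adjusted 0.242). Their r was 0.56 without the 2 arrays farthest for Egr1, unprimed replicate 2 and mesenchyme-primed replicate 2.

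No pair of the 45 passed an adjusted p of 0.05 by this two-sided permutation test, against 6 at an unadjusted p under 0.05. Under cyclic loess scaling 3 pairs passed, and 0 to 2 passed when single arrays were left out. In the unprimed group the shared deviation was that of replicate 2, which stood 2.08 below its group mean in Fos, 1.93 in Fosb, 3.24 in Egr1 and 2.78 in Egr2. In the glia-primed group replicate 3 was below the group mean in 9 of the 10 members, all but Jun, and it was the lowest array of the group in Fosl1, Fosl2, Junb, Jund, Egr1 and Egr2. Fos, Fosb and Egr1 were highest on glia-primed replicate 1, at 2.11, 2.75 and 0.75 above the mean.

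**Figure D4:**
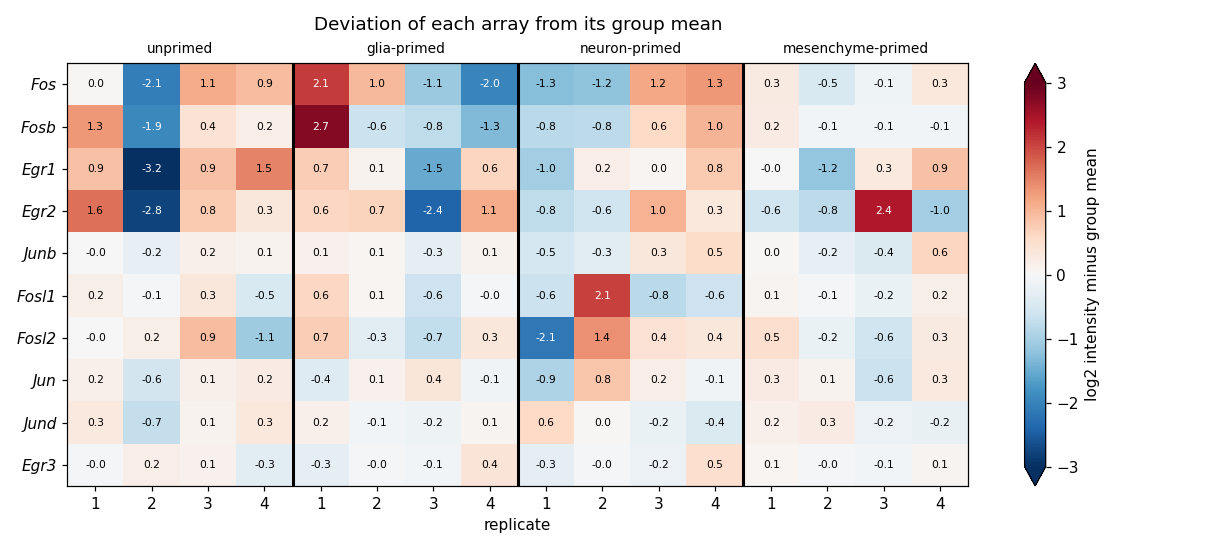
Deviation of each array from its group mean in log2 intensity for the 10 genes (rows) on 16 arrays (columns, in 4 groups by replicate number), red above and blue below the mean. Unprimed replicate 2 is low in Fos, Fosb, Egr1 and Egr2 together (1.93 to 3.24 below the mean), and Fosl2 is lowest on neuron-primed replicate 1.

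Partner proteins and upstream regulators of AP-1 gave no calls. Of 12 listed AP-1 partner proteins 11 were measured, and 0 were called by limma in any of the 6 comparisons. The largest values among them were those of Atf7, an ATF family transcription factor, at -2.25 after glia priming (adjusted p = 0.410), and of Jdp2, a Jun dimerization protein, 1.72 higher in neuron-primed than in mesenchyme-primed arrays (adjusted p = 0.423). Of 13 kinases and turnover factors 10 were measured and 0 called. Among them Mapk10, which encodes the neural Jun kinase, was at -2.88 after glia priming (adjusted p = 0.449), and Map2k4, a kinase that activates the Jun kinases, was at -1.99 for glia-primed against neuron-primed arrays (adjusted p = 0.732). Serum response factor and its partners were all measured, 7 of 7, and 0 were called. Mrtfa, a coactivator of serum response factor, was 1.49 higher in neuron-primed than in mesenchyme-primed arrays (adjusted p = 0.727), and Elk3, a ternary complex factor, was at 1.18 after glia priming (adjusted p = 0.480).

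Of 32 other immediate early genes, all measured, 1 passed the test. Zfp36l1, which encodes an RNA-binding protein that promotes decay of AU-rich mRNAs, fell from a mean of 9.90 in unprimed to 8.64 in glia-primed arrays (log2 change -1.26, SE 0.26, limma adjusted p = 0.0479). The call was marginal and held under 6 of 26 alternatives, with the change at -1.51 to -0.82 and adjusted p at 0.0105 to 0.306. Leaving out any of 14 single arrays ended it, including each of the 4 unprimed arrays. The median change of the 32 genes was 0.21 after glia priming and 0.35 after neuron priming, with all genes at -0.01 and 0.00. The largest uncalled values were those of Ccn2 and Ccn1, secreted matrix proteins, at 2.43 and 2.18 after glia priming (adjusted p = 0.277 and 0.409).

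Among genes known as AP-1 targets 15 of 18 were measured and 1 was called. Mmp9, a secreted gelatinase, had means of 6.50 and 3.20 after neuron and mesenchyme priming, a difference of 3.30 (SE 0.57, limma adjusted p = 0.0210). It was called under 18 of 26 alternatives, and leaving out any of 6 single arrays of those 2 groups ended the call, with adjusted p from 0.00705 to 0.0816 over all alternatives. Hbegf was 3.81 higher in neuron-primed than unprimed arrays (adjusted p = 0.0755), and Plau, the urokinase gene, 2.49 higher (adjusted p = 0.499), neither past the threshold. Of 13 Egr partners and Egr2 myelin targets 10 were measured and 0 called. Pou3f2, a POU factor of the Schwann cell lineage, and Sox10, which acts with Egr2 on myelin genes, were at -1.71 and -1.62 for neuron-primed against mesenchyme-primed arrays (adjusted p = 0.747 and 0.627).

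The other members each had different nearest genes over the 16 arrays. Fos was the gene most like Fosb, at r = 0.86, and the next were Dgcr6 and Cdca4 at 0.79 and 0.78. The genes most like Fos were Immt (0.78), Aunip (0.77) and Pcyt1a (0.76), and Fosb was below the level searched. Egr1 was most like Phtf1 and Snx12 (0.74 each) and Il17ra (0.72), and Egr2 like Psmc6 (0.77), Psrc1 (0.76) and Rrn3 (0.74). Jun was most like Cdkn1c (0.82), Junb like Rad54l2 (0.90), Jund like Prrc2b (0.88), Fosl1 like Thbd (0.86) and Egr3 like Prrc1 (0.90). These are the highest of 9097 values each, over 16 arrays that share a normalization, and are descriptions only.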

How the data were processed

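Affymetrix arrays, 16 in all and 4 per group, measured RNA from neural crest stem cells of the mouse. The deposited intensity values were made by the authors with RMA (background correction, quantile scaling and summary per probe set); the submitters' processing notes name it without a version. They run from 1.49 to 31600 and so are on a linear scale, and their log2 was taken here with no offset. Arrays have no read depth, and their number limits the precision. Scanner files were not used here.

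Of 45101 probe sets, 34958 carried 1 gene symbol, 932 several and 9211 none in the platform annotation used. Only single-gene probe sets were used, symbols were updated through Entrez identifiers (99.4% matched), and the brightest probe set by mean led each of 18194 genes. Group means were fitted across all genes with limma (version 3.58.1, R 4.3.3; lmFit, eBayes) on the 16 arrays together. Tests were two-sided, p-values were adjusted by Benjamini-Hochberg over all genes, and calls were made at an adjusted p under 0.05. The scripts were tested on simulated data. Co-variation used 100000 permutations of arrays within groups. Groups and replicate numbers come from the sample titles.

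The text names all 10 members; from each gene list every called gene (at most 4) and at most 2 uncalled genes by largest change; and the 3 genes most like each member. The members and lists were chosen with earlier results of these data known. Alternatives covered scaling, the filter on dim genes, the probe set, the log offset (16), the variance model, the arrays fitted, the Gapdh 3′ to 5′ ratio, the replicate number and each array left out.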

Additional observations from a re-analysis of the deposited data

Results flagged for a closer look

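Within groups of 4, single arrays stood far from the other 3 in 8 of 64 combinations of a probe set and a group, by the gap to the nearest other array as a share of the group's range (Dixon's test at the 95% level). Chance gives about 1 in 20 such groups, and arrays are shared between genes. Unprimed replicate 2 was low in Egr1, at 4.85 against 8.96 to 9.57, and in Jun, at 8.08 against 8.78 to 8.88. Glia-primed replicate 3 was low in Egr2, at 2.14 against 5.15 to 5.66, and in Junb, at 3.11 against 3.44 to 3.50. Glia-primed replicate 1 was high in Fosb, at 5.83 against 1.76 to 2.44. Mesenchyme-primed replicate 3 was high in Egr2, at 6.04 against 2.61 to 3.05. In Fosb, mesenchyme-primed replicate 1 read 1.87 against 1.54 to 1.55, a small step at the bottom of the scale. Neuron-primed replicate 2 was high in Fosl1, at 6.85 against 3.98 to 4.18.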

How the results depend on the processing

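The count of 0 called members was the same in each of the 7 tests under all alternatives but these. Housekeeping centring gave 1 member, Fosl2, for glia-primed against unprimed arrays. Leaving out single arrays gave 0 to 1 for glia-primed and for neuron-primed against unprimed arrays and in the F test. Pairs of members that co-varied numbered 3 under cyclic loess, and 0 to 2 with single arrays left out.

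With the Gapdh 3′ to 5′ ratio as a covariate, changes turned to 1.05 (Egr1), 0.10 (Egr2) after glia priming, 0.036 (Jun) and 0.98 (Egr1) after neuron priming, 0.33 (Egr1) after mesenchyme priming, and 0.068 (Egr1) and 0.052 (Egr3) for glia against neuron priming. Housekeeping centring gave 0.25 (Fosl1, glia), 0.087 (Jun, neuron), 0.058 (Egr1, neuron), 0.081 (Egr3, glia against neuron) and 0.27 (Jund, glia against mesenchyme). Cyclic loess gave 0.034 for Egr3, glia against neuron, and the mean of probe sets gave -0.014 and -0.20 for Egr3 after glia and mesenchyme priming. None of these passed the test, and the cause was not tested.

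With single arrays left out, changes from unprimed arrays crossed 0 for Egr1 (-1.43 to 0.15 after glia and -1.27 to 0.31 after neuron priming), Fosl1 (-0.28 to 0.13, glia), Jund (-0.10 to 0.24, glia), Jun (-0.44 to 0.15, neuron) and Junb (-0.086 to 0.27, mesenchyme). For glia against neuron priming they crossed 0 for Fos (-0.62 to 0.75), Fosb (-0.022 to 1.34), Fosl2 (-0.84 to 0.33), Egr1 (-0.51 to 0.34) and Egr3 (-0.13 to 0.17). For glia against mesenchyme they did for Junb (-0.073 to 0.28) and Egr3 (-0.063 to 0.16), and for neuron against mesenchyme for Fosl1 (-0.01 to 0.95), Egr2 (-0.97 to 0.18) and Egr3 (-0.10 to 0.17). In all, 1746 member values by alternative kept their side of the threshold and, outside the F test, their direction. A further 46 changed direction and 4, all of Fosl2, came to pass the threshold. Many of the 1746 could not change direction, as when the array left out belonged to a group not compared.

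Replicate numbers showed no pairing of the arrays. After group means were removed from each gene, same-numbered arrays of different groups correlated at -0.07 to 0.06 in 24 pairs. By the same deviations, 2 of 16 arrays were most like an array of their own number in another group. With the replicate number as a block, 0 members were called, Fosl2 had adjusted p of 0.226, 0.203 and 0.707 for glia, neuron and mesenchyme priming, and the count over all genes was 52 instead of 93 for glia-primed against unprimed arrays, 22 instead of 41 for glia against mesenchyme and 66 instead of 109 in the F test.

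Counts over all genes moved more than those of the members. For glia-primed against unprimed arrays 93 genes became 30 with the Gapdh covariate, 60 with only those groups fitted and 25 to 168 with single arrays left out. For neuron-primed arrays 79 became 33, 17 and 31 to 237. For mesenchyme-primed arrays 4 became 2 under housekeeping centring, 1 with the covariate or with trend and robust, 0 with the offset of 16 or only those groups, and 0 to 3 with arrays left out. Glia against neuron gave 0 with only those groups and 2 to 7 with arrays left out, and glia against mesenchyme 14 to 68. Neuron against mesenchyme went from 63 to 26 with only those groups, and 36 to 141, and the F test from 109 to 72 with the covariate, and 63 to 220. Housekeeping centring turned the split towards higher genes: 84 of 103 for glia and 48 of 71 for neuron priming, where 34 of 93 and 24 of 79 were higher without it. For glia and neuron against mesenchyme it gave 63 of 76 and 70 of 95, where 13 of 41 and 25 of 63 were higher, and the F test called 177. It moved the median change of all genes by 0.32 and 0.25 for glia and neuron priming and by 0.40 and 0.32 for these groups against mesenchyme.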
